A study of Mus musculus with 9 samples.

Results

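The genes of the proteasome and of the immunoproteasome were compared between untreated cells, cells given TNF-α and cells given TNF-α together with Wang Bi Tablet (WBT). They were taken as every gene whose symbol begins with Psma, Psmb, Psmc, Psmd, Psme, Psmf or Psmg and goes on with a number, which held for 49 of the 56289 genes with a deposited value. The rule read the names alone and no measured value. The 49 genes lie on 16 chromosomes and encode the rings of the core particle, the regulatory particle, the activators, an inhibitor and the assembly chaperones.

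The libraries came from a mouse line labelled RAW264.7, a macrophage-like line, with BALB/c given as its strain. Each group held 3 libraries of poly(A) RNA, which the study calls biological replicates, and the labels do not say whether they were separate cultures, so p-values measure the spread between these libraries only. Con was untreated, TNF-α received recombinant human TNF-α at 20 ng/ml, and TNF-α+WBT received 20 ng/ml TNF-α with 1.0 μg/ml of the tablet, each for 24 h. WBT is a multi-herb tablet used in China against rheumatoid arthritis, and the sample labels spell this group WBP. Values are FPKM, in which the fragments of a gene are divided by its transcript length and by the fragments in the library.

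The proteasome is the protease that degrades ubiquitin-tagged proteins in the cytosol and nucleus. Its 20S core is a barrel of α and β subunits, of which Psmb5, Psmb6 and Psmb7 encode the catalytic ones, and the 19S particle (Psmc and Psmd genes) unfolds substrates and feeds them into the barrel. In cells exposed to interferon-γ, and permanently in many immune cells, newly made cores take up Psmb8 (LMP7), Psmb9 (LMP2) and Psmb10 (MECL-1) in place of those catalytic subunits, and this immunoproteasome, often capped by the PA28 activator of Psme1 and Psme2, produces many of the peptides shown on MHC class I.

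RefSeq promoter windows, which run from 250 bases before to 50 bases after an annotated start site in GRCm38.p6, were found for 41 of the 49 genes. The windows of the immunoproteasome and PA28 genes are printed 5′ to 3′ on the strand of the gene, because these are the members that interferon signalling is known to control. Of 2 windows of Psme2, the one that starts farther upstream is shown. Capitals mark a match to the core of the interferon-stimulated response element (GAAANNGAAA), to the palindrome of the interferon-γ-activated sequence (GAS, TTCNNNGAA) or to the κB consensus. The core of the antioxidant response element (TGACNNNGC) was searched too and matched none of the printed windows. Each motif was searched on both strands with overlaps allowed.
Psmb8 (chr17:34197945-34198244, plus strand): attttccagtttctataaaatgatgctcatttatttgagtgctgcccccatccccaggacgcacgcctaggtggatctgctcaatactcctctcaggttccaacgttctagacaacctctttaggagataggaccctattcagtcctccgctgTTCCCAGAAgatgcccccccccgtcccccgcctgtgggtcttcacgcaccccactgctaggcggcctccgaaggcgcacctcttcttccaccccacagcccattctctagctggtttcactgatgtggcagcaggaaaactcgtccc
Psmb9 (chr17:34187281-34187580, minus strand): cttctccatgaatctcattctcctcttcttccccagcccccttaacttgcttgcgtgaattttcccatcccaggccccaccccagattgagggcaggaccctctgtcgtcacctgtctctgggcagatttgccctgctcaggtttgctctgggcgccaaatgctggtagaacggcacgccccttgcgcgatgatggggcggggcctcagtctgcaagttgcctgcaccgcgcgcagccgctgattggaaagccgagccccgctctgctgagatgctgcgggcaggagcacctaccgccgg
Psmb10 (chr8:105938343-105938642, minus strand): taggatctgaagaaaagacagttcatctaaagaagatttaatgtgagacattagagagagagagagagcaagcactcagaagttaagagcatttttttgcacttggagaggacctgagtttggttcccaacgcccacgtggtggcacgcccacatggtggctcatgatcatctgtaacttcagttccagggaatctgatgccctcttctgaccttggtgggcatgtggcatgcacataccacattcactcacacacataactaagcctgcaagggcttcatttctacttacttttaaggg
Psme1 (chr14:55578244-55578543, plus strand): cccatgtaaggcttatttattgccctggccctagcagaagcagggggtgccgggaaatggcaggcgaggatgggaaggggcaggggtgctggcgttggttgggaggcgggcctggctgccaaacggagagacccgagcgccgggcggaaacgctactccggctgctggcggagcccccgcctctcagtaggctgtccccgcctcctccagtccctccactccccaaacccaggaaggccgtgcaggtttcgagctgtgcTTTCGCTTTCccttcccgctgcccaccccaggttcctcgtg
Psme2 (chr14:55591052-55591351, minus strand): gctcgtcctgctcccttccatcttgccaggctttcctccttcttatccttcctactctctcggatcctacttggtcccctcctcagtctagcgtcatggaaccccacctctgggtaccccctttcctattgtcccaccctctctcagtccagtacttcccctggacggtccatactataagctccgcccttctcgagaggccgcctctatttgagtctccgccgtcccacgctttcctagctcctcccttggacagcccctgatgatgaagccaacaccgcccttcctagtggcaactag

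The Psmb8 window held the GAS palindrome 97 to 89 bases before its RefSeq start site. The Psme1 window held the interferon-stimulated core 9 to 18 bases after its RefSeq start site. In GENCODE M21, Psmb8, Psmb9 and Psme1 begin farther upstream, so their windows lie within the gene. The windows of Psmb9, Psmb10 and Psme2 held none of these letters. Among all members, the interferon-stimulated core was found in 5 of 41 genes (12.2%; Psmb3, Psmd4, Psmd9, Psme1 and Psmg4) and in 4% of the 27025 genes with a window. The GAS palindrome was found in 3 of 41 (7.3%; Psmb8, Psmd2 and Psmg1) against 9.6% of all genes, the κB consensus in 1 of 41 (2.4%; Psmd12) against 5.1%, and the antioxidant core in 6 of 41 (14.6%; Psmb5, Psmb6, Psmc6, Psmd9, Psmd12 and Psme4) against 14%. A match describes letters in the window and was not tested as a site.

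The deposited values do not state the depth, which was estimated at 16989323 to 26287278 fragments per library. It was 20390826 to 26287278 in Con, 19069403 to 22625670 in TNF-α and 16989323 to 19977070 in TNF-α+WBT. Of 15 macrophage markers, only Cd14 lay above 1 FPKM in all 9 libraries, and 7 (Adgre1, Ctss, Cybb, Itgam, Ptprc, Spi1 and Tyrobp) were listed at 0 in every one, so the cells are referred to by their group and not as macrophages. In the same libraries, 8 of 10 fibroblast and 6 of 8 Schwann cell markers lay above 1 FPKM, and 0 of 6 lymphocyte and dendritic cell markers did. Their summed level differed between the groups. The Schwann cell list summed to 809 to 871 FPKM in Con, 663 to 707 in TNF-α and 708 to 738 in TNF-α+WBT. In limma, 4 of its 8 genes were lower in TNF-α against Con at an adjusted p under 0.05, where 1.93% of all genes were. The fibroblast list summed to 4558 to 4840, 5017 to 5277 and 4928 to 5047 FPKM, with Lum listed at 0, and of its genes Col1a1 and Col1a2 were higher and Pdgfrb lower (log2 fold change -0.52) in TNF-α against Con. The macrophage list stayed between 6.20 and 8.98 FPKM, and the lymphocyte and dendritic cell list at or under 0.766, with Cd3e and Nkg7 listed at 0. The part of these differences in the results was not tested. In RNA of whole cultures, a change in the number of cells of a type and a change in RNA per cell cannot be told apart.

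Of the 49 genes, 47 lay above 1 FPKM in all 9 libraries. Their means over the libraries ran from 2.49 FPKM (Psmb9) to 123.6 FPKM (Psmb4), and 38 of them exceeded 20 FPKM. Psma8, which encodes the α subunit of the testis form, was listed at 0 in every library, and Psmb11, the catalytic subunit of the thymus form, reached at most 0.0257 FPKM. The replicates lay close together. The median SD within a group was 0.0794 on the log2 scale for the 47 genes, against 0.115 over all 12686 genes whose mean reached 1 FPKM. Those genes were not matched in level to the 47, whose median mean was 46.5 FPKM, so the difference is not read as a trait of the members.

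**Figure D1:**
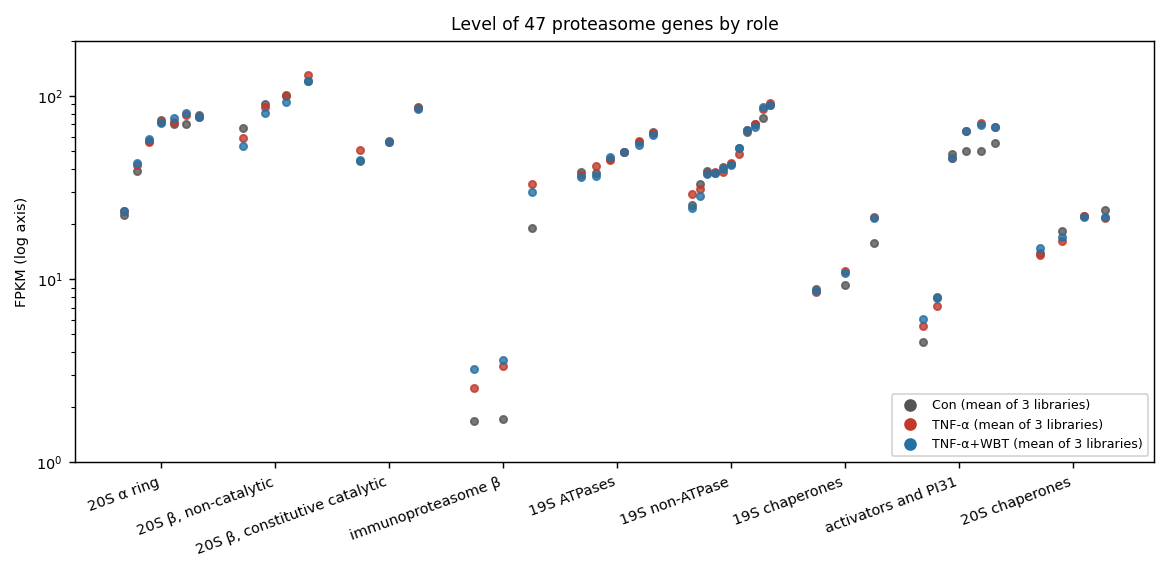
Each point is the mean of 3 libraries in FPKM (log axis) for 1 of 47 genes, placed by role along the x axis, ordered by level within it and coloured by group. The immunoproteasome genes Psmb8 and Psmb9 are the lowest, at 2.89 and 2.49 FPKM on average, and Psmb4 is the highest.

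Subunits that share a ring stand in equal number in the assembled particle, but their genes did not share a level in FPKM. Among the α ring genes, with Psma8 left out, the mean ran from 23.2 FPKM (Psma2) to 77.1 FPKM (Psma5). FPKM depends on the transcript length assigned to a gene. In estimated fragments of the first Con library, the same genes ran from 1797.5 (Psma1) to 2592.7 (Psma5), with Psma2 at 1859.4. Differences in FPKM between genes are therefore not read as differences in the number of transcripts. Among the 19S ATPases, which form the unfolding ring, it ran from 37.1 FPKM (Psmc6) to 62.4 FPKM (Psmc1). Among the 19S non-ATPase subunits, it ran from 26.2 FPKM (Psmd13) to 89.7 FPKM (Psmd2, the largest scaffold of the base together with Psmd1).

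TNF-α against Con asks what the cytokine did to these genes. The immunoproteasome genes Psmb8 and Psmb10, the PA28 gene Psme2, the PA200 gene Psme4 and the chaperone gene Psmd10 were higher, and no gene of the constitutive core or of the 19S subunits passed the test. Each gene above 0 FPKM in at least 3 libraries was tested on log2(FPKM + 0.1) with limma and Benjamini-Hochberg adjustment over all 25417 genes tested, which understates changes of low genes. Of 48 members tested, 5 (10.4%) passed an adjusted p of 0.05, all of them higher, namely Psmb8, Psmb10, Psme2, Psme4 and Psmd10. Over all genes, 4.86% passed, 2.94% higher and 1.93% lower. Those genes were not matched in level to the members. When only the 12686 genes whose mean reached 1 FPKM were tested, 1369 of them passed, and 6 of the 47 members did. A share above that of all genes, here and for the lists of genes, is therefore not read as a trait of the members or lists. The study used a threshold in which the fold change exceeds 2 and the unadjusted p lies under 0.05, and its workflow names Ballgown. Applied here to limma values, that threshold was passed by 0 members and by 2.42% of all genes. At an unadjusted p under 0.05 alone, 9 members (18.8%) were higher and 0 were lower, against 8.63% and 7.45% of all genes. The groups did not overlap for 13 members (9 higher in TNF-α and 4 lower), where they did not overlap for 21.2% of all genes, 11.1% higher and 10.2% lower. The median log2 fold change of the 47 members above 1 FPKM was 0.0045, against 0.0028 over all genes tested.

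Psmb8 (ENSMUSG00000024338; chr17:34197721-34201454 in GENCODE M21, GRCm38), whose product takes the place of Psmb5 and cleaves after hydrophobic residues, was 2.01, 1.59 and 1.56 FPKM in Con, 4.01, 3.15 and 2.85 FPKM in TNF-α, and 3.55, 3.74 and 3.55 FPKM in TNF-α+WBT. All 6 stimulated libraries lay above all Con libraries, and the TNF-α and TNF-α+WBT libraries overlapped. The log2 fold change of TNF-α against Con was 0.91 (SE 0.15, a 1.88-fold difference) with an adjusted p of 0.00942 in limma. Its lowest library rested on about 49.4 estimated fragments.

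Psmb10 (ENSMUSG00000031897; chr8:105935735-105938444), which replaces Psmb7, was the most abundant of the 3 immunoproteasome genes. It measured 19.8, 17.9 and 19.4 FPKM in Con, 30.7, 35.5 and 33.3 FPKM in TNF-α, and 29.3, 30.6 and 29.5 FPKM in TNF-α+WBT. Con stood apart from both stimulated groups, and every TNF-α+WBT library lay below every TNF-α library, though the nearest ones were only 30.6 and 30.7 FPKM. Against Con, TNF-α was higher by 0.80 on the log2 scale (SE 0.061, 1.74-fold, limma adjusted p = 0.000127).

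Psmb9 (ENSMUSG00000096727; chr17:34181987-34187764), which replaces Psmb6, was as low as Psmb8. Con libraries held 1.48, 1.71 and 1.88 FPKM, TNF-α libraries 2.05, 3.29 and 2.32 FPKM, and TNF-α+WBT libraries 2.97, 3.51 and 3.19 FPKM. No stimulated library reached down to Con, but the 3 TNF-α libraries were spread widely, and the difference of 0.55 on the log2 scale (SE 0.18) had an adjusted p of 0.16 in limma. Without the second TNF-α library it was 0.36. In GENCODE M21, Psmb9 and Tap1, which encodes a subunit of the peptide transporter, start 211 bases apart on opposite strands, and their exons share 212 bases. The library kit is not stated to mark the strand, so fragments from those bases cannot be told apart. Tap1 measured 1.54, 1.89 and 1.79 FPKM in Con, 2.03, 2.72 and 3.61 FPKM in TNF-α, and 2.55, 2.59 and 2.69 FPKM in TNF-α+WBT (log2 fold change of TNF-α against Con 0.62, limma adjusted p = 0.135). The exons of Psmb8 share 498 bases with an antisense gene, Gm20496, which was listed at 0.

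Psme1 and Psme2 encode the α and β subunits of PA28, the ring that opens the core without ubiquitin or ATP. Their GENCODE M21 start sites lie 12990 bases apart on chromosome 14. Psme2 was 49.8, 53.8 and 45.8 FPKM in Con, 64.1, 71.1 and 77.4 FPKM in TNF-α, and 70.3, 69.1 and 68.5 FPKM in TNF-α+WBT. Psme1 was 51.5, 50.2 and 49.2 FPKM in Con, 54.4, 69.6 and 69.4 FPKM in TNF-α, and 65.4, 64.2 and 62.5 FPKM in TNF-α+WBT. Both genes separated Con from every stimulated library, and for Psme1 the first TNF-α library stood closer to Con than the others did. Psme2 rose by 0.51 on the log2 scale (SE 0.076, 1.42-fold, limma adjusted p = 0.00574). The difference of 0.35 for Psme1 (SE 0.087, 1.27-fold) missed the threshold at an adjusted p of 0.064, and with 1 library left out it ran from 0.29 to 0.46, with adjusted p-values in limma from 0.000696 (without the first TNF-α library) to 0.191 (without the third).

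Psme2b, a near copy of Psme2 on chromosome 11, was 3.21, 4.49 and 5.94 FPKM in Con, 6.82, 4.48 and 5.36 FPKM in TNF-α, and 5.87, 5.98 and 6.22 FPKM in TNF-α+WBT. The groups overlapped, and the log2 fold change of TNF-α against Con was 0.31 (SE 0.22, limma adjusted p = 0.58). With 1 library left out it ran from 0.08 (without the first Con library) to 0.52 (without the third). In GENCODE M21, 68.7% of the 50-base stretches of Psme2b also occur in Psme2 and 28.3% of those of Psme2 occur in Psme2b, so fragments may have been divided between them. The sum of both genes was 51.7 to 58.2 FPKM in Con, 70.9 to 82.8 FPKM in TNF-α and 74.7 to 76.2 FPKM in TNF-α+WBT, without overlap between Con and the other groups.

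The gene of another cap, Psme4 (ENSMUSG00000040850; chr11:30771726-30880361), encodes PA200, a large activator known for the degradation of acetylated histones. It was 55.9, 55.0 and 56.0 FPKM in Con, 68.9, 67.2 and 66.2 FPKM in TNF-α, and 68.2, 67.4 and 68.1 FPKM in TNF-α+WBT. The replicates were among the tightest of the members, and the rise of 0.28 on the log2 scale (SE 0.029, 1.21-fold) had an adjusted p of 0.000812 in limma. Psme3, which encodes the nuclear activator PA28γ, was 50.3, 47.0 and 46.8 FPKM in Con, 47.3, 44.7 and 44.7 FPKM in TNF-α, and 47.5, 44.3 and 46.0 FPKM in TNF-α+WBT. Here the groups overlapped, with a log2 fold change of -0.08 (SE 0.044, limma adjusted p = 0.471, 95% confidence interval -0.18 to 0.02).

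Psmf1 encodes PI31, a protein that inhibits the core in vitro and carries proteasomes along axons. It measured 7.02, 8.78 and 8.07 FPKM in Con, 6.58, 7.74 and 7.15 FPKM in TNF-α, and 8.51, 7.74 and 7.33 FPKM in TNF-α+WBT. The groups overlapped, and the log2 fold change of TNF-α against Con was -0.15 (SE 0.10, limma adjusted p = 0.557).

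**Figure D2:**
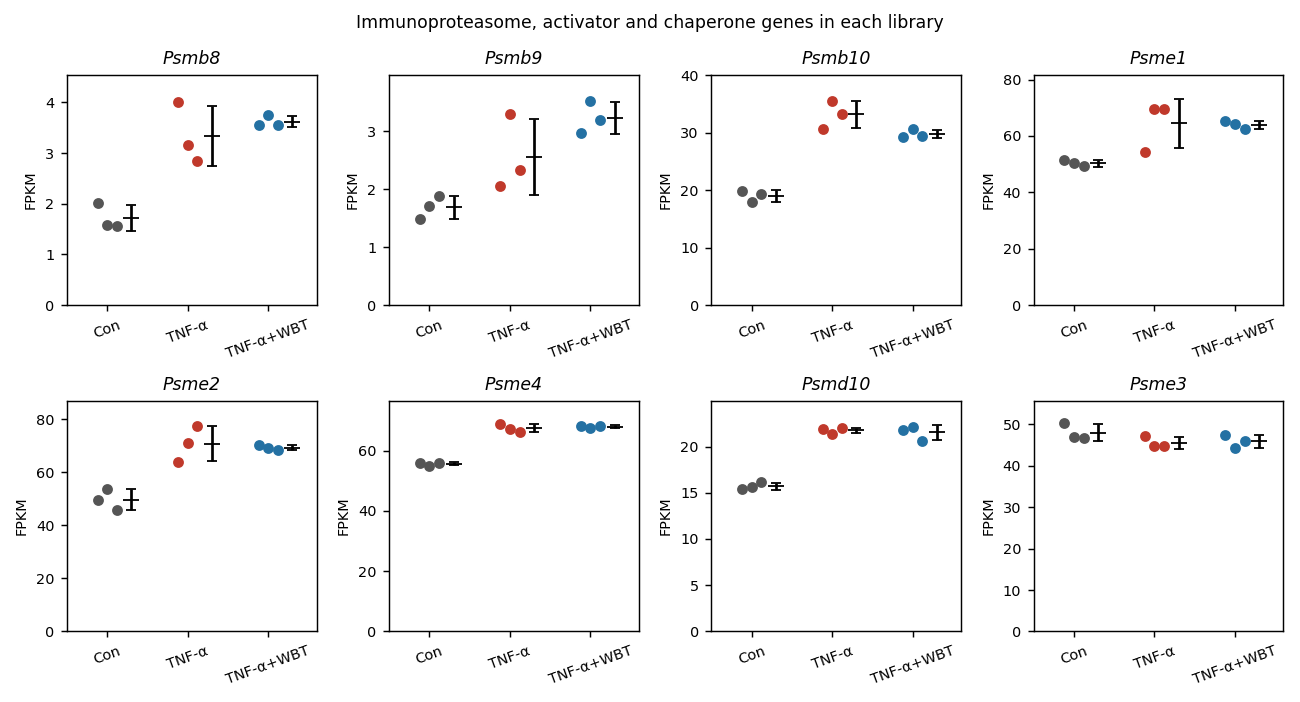
Each panel shows the FPKM of 1 gene in the 9 libraries (points, coloured by group), with the mean and SD of the 3 libraries of a group as a bar at its right. Con lies below every stimulated library for the first 7 genes, while for Psme3, at 44.3 to 50.3 FPKM, the groups overlap.

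Psmd10 (ENSMUSG00000031429; chrX:140948429-140956728) encodes gankyrin, an ankyrin-repeat chaperone that holds an ATPase of the 19S base during assembly and is also known as an oncoprotein. Its values were 15.4, 15.6 and 16.1 FPKM in Con, 21.9, 21.4 and 22.0 FPKM in TNF-α, and 21.8, 22.1 and 20.6 FPKM in TNF-α+WBT. No stimulated library came near Con. The rise was 0.47 on the log2 scale (SE 0.042, 1.38-fold, limma adjusted p = 0.000363). The other chaperones of the 19S base, Psmd5 and Psmd9, gave log2 fold changes of -0.06 and 0.24 with groups that overlapped.

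The catalytic subunits that the immunoproteasome genes replace did not pass the test. Psmb6, the subunit that cleaves after acidic residues, was 88.4, 85.8 and 86.8 FPKM in Con, 83.3, 80.7 and 93.2 FPKM in TNF-α, and 84.4, 84.6 and 86.4 FPKM in TNF-α+WBT. Psmb7, which cleaves after basic residues, was 59.4, 52.5 and 57.4 FPKM in Con, 60.3, 52.9 and 55.7 FPKM in TNF-α, and 56.0, 56.2 and 55.7 FPKM in TNF-α+WBT. For both, the TNF-α range took in the Con range or nearly so, and the 95% confidence intervals of the log2 fold change were -0.14 to 0.09 and -0.14 to 0.13. Psmb5, which cleaves after hydrophobic residues, was 51.3, 44.9 and 36.6 FPKM in Con, 51.4, 47.3 and 52.8 FPKM in TNF-α, and 38.5, 47.1 and 48.3 FPKM in TNF-α+WBT. Its replicates were wider, and its interval ran from -0.09 to 0.49 with a log2 fold change of 0.20 (limma adjusted p = 0.518), which was 0.31 without the first Con library and 0.07 without the third. Of the 50-base stretches of Psmb5, 46.8% also occur in another gene, Gm3375, which was listed at 33.9 to 37.8 FPKM, and how fragments were divided between them is not given in the sources used here. The sum of both was 71.6 to 87.3 FPKM in Con, 82.1 to 89.2 FPKM in TNF-α and 72.4 to 85.0 FPKM in TNF-α+WBT. Psmb5 exons also share 109 bases with Mir686 on the same strand. Those of Psmb7 share 405 bases with Nek6 on the opposite strand, whose mean was 5.34 FPKM.

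The share of the immunoproteasome genes in the summed FPKM of the 6 catalytic genes was 10.4% to 11.2% in Con, 15.9% to 18.8% in TNF-α and 16.0% to 16.8% in TNF-α+WBT. Most of that share was Psmb10. The log2 ratio of Psmb10 to Psmb7 was -1.57 ± 0.0154 (SD, n = 3) in Con and -0.76 ± 0.20 in TNF-α. That of Psmb8 to Psmb5 was -4.68 ± 0.14 in Con and -3.93 ± 0.27 in TNF-α, and that of Psmb9 to Psmb6 was -5.69 ± 0.19 in Con and -5.09 ± 0.42 in TNF-α. For each pair the 3 TNF-α libraries lay above the 3 Con libraries, with an exact two-sided permutation p of 0.1, the smallest that 3 against 3 can give. The difference between TNF-α and Con fell from 0.75 to 0.27 for Psmb8 to Psmb5 when the single transcript of highest mean stood in for each gene, and from 0.60 to 0.36 for Psmb9 to Psmb6 without the second TNF-α library.

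**Figure D3:**
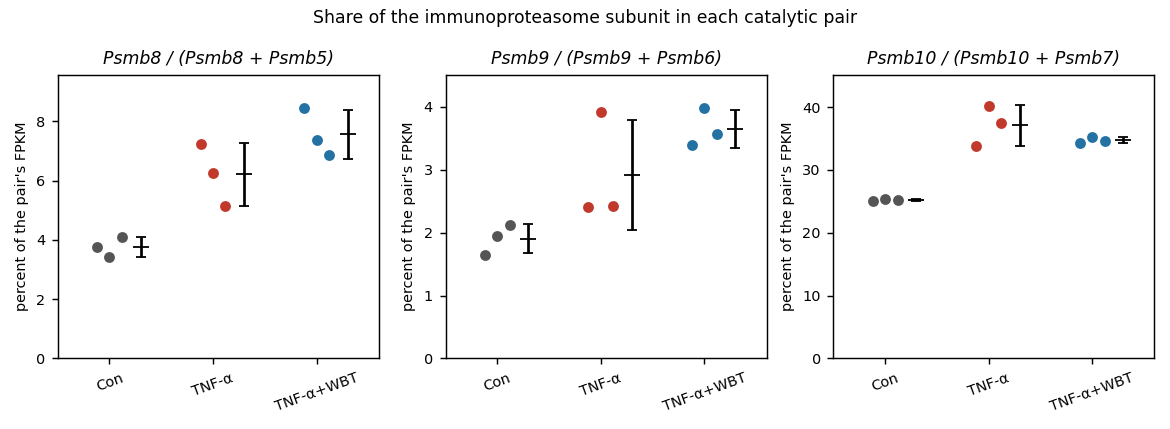
The FPKM of the immunoproteasome gene is shown as a percent of the sum with its constitutive counterpart in each of the 9 libraries, with mean and SD of the group. Psmb10 made up 25.0% to 25.4% of its pair in Con and 33.7% to 40.2% in TNF-α, and the shares of Psmb8 and Psmb9 stayed under 9% in every library.

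The remaining 40 members above 1 FPKM, which leave out the 3 immunoproteasome genes, Psme1, Psme2, Psme4 and Psmd10, gave log2 fold changes from -0.19 (Psmb2) to 0.31 (Psme2b), and their 95% confidence interval lay within 0.5 for 38. Of all 47 members above 1 FPKM, 37 lay within 0.2 on the log2 scale in either direction, where 70.3% of all genes whose mean reached 1 FPKM did. None of the 7 α ring genes, 6 ATPases, 11 non-ATPase subunits or 4 chaperones of the core (Psmg1 to Psmg4) passed the adjusted threshold in limma. At an unadjusted p under 0.05 in limma, only Psma6 (0.16) and Psmc4 (0.13) passed among the 40, against 16.1% of all genes. The 40 leave out every member that passed the adjusted threshold in this comparison, and also Psmb9 and Psme1. Each of those left out had an unadjusted p under 0.05 in limma. The count among the 40 can therefore not be set against the share of all genes. The narrow range and low count of the 40 are partly set by that choice. Summed over the α ring, the level was 398 to 436 FPKM in Con and 413 to 426 FPKM in TNF-α. Summed over the non-ATPase subunits of the 19S particle, it was 561 to 584 FPKM in Con and 563 to 597 FPKM in TNF-α, so both sums overlapped between the groups.

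The 3 members that were lowest in TNF-α relative to Con did not pass the test either. Psmb2, a structural β subunit, was 68.7, 65.4 and 65.0 FPKM in Con, 62.7, 64.7 and 48.5 FPKM in TNF-α, and 61.2, 51.9 and 46.6 FPKM in TNF-α+WBT. Psmg1, which encodes a chaperone that starts the α ring, was 17.8, 17.7 and 19.4 FPKM in Con, 16.9, 15.5 and 16.1 FPKM in TNF-α, and 16.2, 19.3 and 15.7 FPKM in TNF-α+WBT. For Psmb2 the third TNF-α library lay far under the others, and the log2 fold change was -0.19 (SE 0.12, limma adjusted p = 0.532), or -0.06 without that library. For Psmg1 the TNF-α libraries lay under all Con libraries, with a log2 fold change of -0.18 (SE 0.081, limma adjusted p = 0.334). The member that came next was Psmf1.

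**Figure D4:**
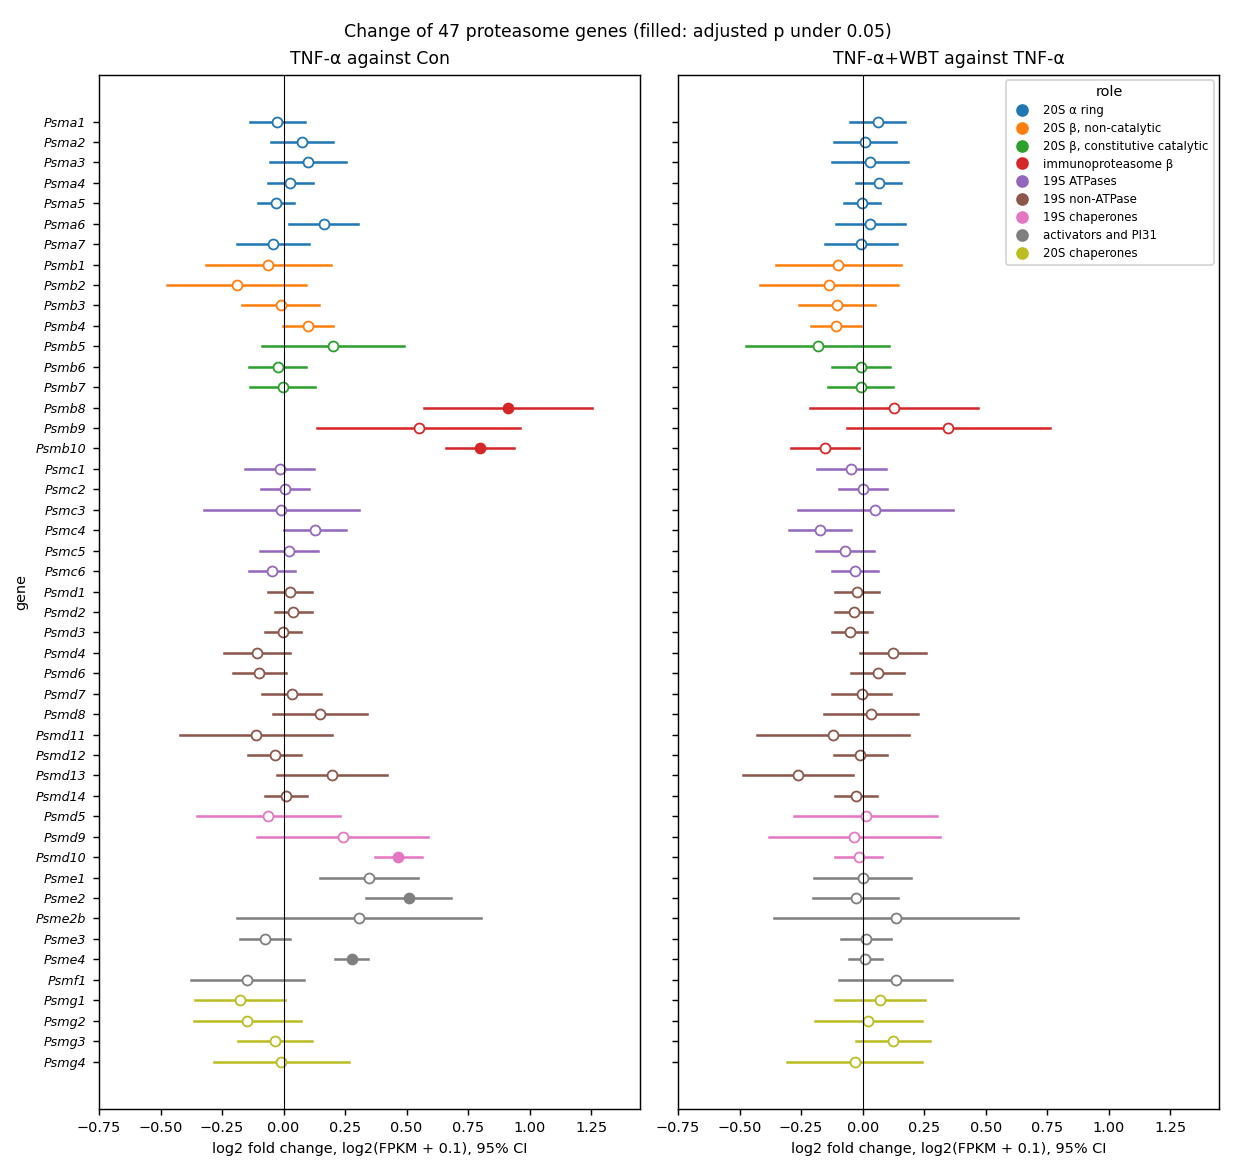
Log2 fold changes on the log2(FPKM + 0.1) scale with 95% confidence intervals from limma are drawn for 47 genes, coloured by role, for TNF-α against Con (left) and TNF-α+WBT against TNF-α (right), with filled points for an adjusted p under 0.05. The 5 filled points on the left are Psmb8, Psmb10, Psmd10, Psme2 and Psme4, and no point on the right is filled.

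The question for TNF-α+WBT against TNF-α is whether the tablet altered what TNF-α did. No member passed an adjusted p of 0.05 in limma (0 of 48), and over all genes 1 did (0.00393%). At an unadjusted p under 0.05, 4 members (8.33%) were lower in TNF-α+WBT and 0 were higher, against 3.43% and 2.88% of all genes (6.31% in either direction). The 4 were Psmb10, Psmb4, Psmc4 and Psmd13. The groups did not overlap for 6 members (5 lower and 1 higher), against 11% of all genes, 5.61% lower and 5.39% higher. The fold and p threshold of the study, applied to limma values, was passed by 0 members and by 1.12% of all genes. The median log2 fold change of the 47 members was -0.0057, against -0.0020 over all genes tested.

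For the immunoproteasome and activator genes and Psmd10, the second comparison gave differences of either sign, none of which passed the test. Psmb10 differed by -0.15 on the log2 scale (SE 0.061, limma adjusted p = 0.762), while Psmb8 differed by 0.13 (SE 0.15, adjusted p = 0.93) and Psmb9 by 0.35 (SE 0.18, adjusted p = 0.821). The 95% confidence intervals were -0.29 to -0.01 for Psmb10, -0.22 to 0.47 for Psmb8 and -0.06 to 0.76 for Psmb9. Those of Psme1 (-0.20 to 0.20), Psme2 (-0.20 to 0.15), Psme4 (-0.05 to 0.08) and Psmd10 (-0.11 to 0.08) were narrower. The log2 ratio of Psmb10 to Psmb7 was -0.91 ± 0.0301 (SD, n = 3) in TNF-α+WBT, 0.15 lower than in TNF-α (exact permutation p = 0.4). The ratio of Psmb8 to Psmb5 was -3.62 ± 0.17, 0.31 higher (exact permutation p = 0.2), and that of Psmb9 to Psmb6 was -4.73 ± 0.12, 0.37 higher (exact permutation p = 0.3). In each pair the libraries of both groups overlapped. With 1 library left out, these differences ran from -0.25 to -0.05 for Psmb10, 0.17 to 0.44 for Psmb8 and 0.24 to 0.61 for Psmb9, and with the single transcript of highest mean that for Psmb8 was 0.62.

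Psmd13, a subunit of the 19S lid, showed the lowest value of the comparison. It was 25.5, 24.5 and 25.7 FPKM in Con, 28.3, 27.2 and 31.7 FPKM in TNF-α, and 23.3, 28.2 and 21.5 FPKM in TNF-α+WBT. The second TNF-α+WBT library lay within the TNF-α range and the others below it, and the log2 fold change against TNF-α was -0.26 (SE 0.098, limma adjusted p = 0.725). Its exons share 342 bases with Sirt3 on the opposite strand.

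Psmc4, an ATPase of the 19S base, was 36.8, 39.6 and 37.1 FPKM in Con, 42.7, 40.1 and 41.3 FPKM in TNF-α, and 38.9, 37.1 and 34.1 FPKM in TNF-α+WBT. Every TNF-α library lay above every library of the other groups, with log2 fold changes of 0.13 against Con (SE 0.056, limma adjusted p = 0.302) and of -0.17 for TNF-α+WBT against TNF-α (SE 0.056, adjusted p = 0.676). Psmb4, a structural β subunit, was 119, 123 and 118 FPKM in TNF-α+WBT and 125, 132 and 132 FPKM in TNF-α, a log2 fold change of -0.11 (SE 0.044, adjusted p = 0.766). Psmb5 gave -0.18 (SE 0.13, adjusted p = 0.868) with overlapping groups. At the other end, after Psmb9, stood Psme2b with 0.14 and Psmf1 with 0.13, whose groups also overlapped.

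In TNF-α+WBT against Con, which shares its libraries with the comparisons above, 6 of 48 members (12.5%) were higher at an adjusted p under 0.05 in limma and 0 were lower, where 3.71% of all genes passed, 2.31% higher and 1.4% lower. The 6 were the 5 genes that were higher in TNF-α and Psmb9. When only the 12686 genes whose mean reached 1 FPKM were tested, 1055 of them passed, and 7 of the 47 members did. At an unadjusted p under 0.05, 9 members were higher and 1, Psmb2, was lower, against 7.95% and 6.78% of all genes. The groups did not overlap for 8 members that were higher and 2 that were lower, against 10.2% and 9.25% of all genes. Psmb8 differed by 1.04 on the log2 scale (2.05-fold, adjusted p = 0.00618). It was the only member past the fold and p threshold of the study applied to limma values, which 2.29% of all genes passed. Psmb9 differed by 0.90 (1.86-fold, adjusted p = 0.0309) and Psmb10 by 0.65 (1.56-fold, adjusted p = 0.00059). Psme2, Psmd10 and Psme4 differed by 0.48, 0.45 and 0.29, and Psme1 by 0.35 with an adjusted p of 0.0744. The Psmb9 call was lost, with an adjusted p of up to 0.111, when any 1 of the 3 Con or 3 TNF-α+WBT libraries or the third TNF-α library was left out.

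The transcript table resolves the members into 274 transcripts, of which 248 could be tested. In TNF-α against Con, 3 of them (1.21%) passed an adjusted p of 0.05 in limma, all higher, where 0.635% of 80149 transcripts passed and 0.392% were higher. The count was 0 without the intensity trend, 0 with the replicate block, and 1 to 2 with a library left out (1 without the first or second Con library or TNF-α replicate 1 or 3). They were the most abundant transcripts of Psmb10, Psmd10 and Psme4, which made up 80.1%, 95.4% and 92.0% of the FPKM of their genes. The most abundant transcript of Psmb8, a coding one, was less steady. It was 1.52, 1.06 and 1.28 FPKM in Con, 0.985, 2.40 and 2.28 FPKM in TNF-α, and 2.63, 1.56 and 3.51 FPKM in TNF-α+WBT, and it made up 74.8%, 56.5% and 71.0% of the Psmb8 mean in those groups. In the first TNF-α library, which had the highest Psmb8 value of all, this transcript was at its lowest, and a transcript of Psmb8 with a retained intron was at 1.60 FPKM.

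Proteasome genes that the symbol rule does not reach were taken from a list. Pomp, the chaperone that finishes the core and is known to favour the immunoproteasome, was 39.7, 37.4 and 37.8 FPKM in Con, 40.7, 43.4 and 42.0 FPKM in TNF-α, and 33.6, 41.1 and 40.6 FPKM in TNF-α+WBT. TNF-α lay above Con by 0.13 on the log2 scale without passing the test (SE 0.075, limma adjusted p = 0.449). Of the 6 genes of the list in the file, 0 were higher and 1 was lower in TNF-α against Con, against 2.94% and 1.93% of all genes. The lower one was Uchl5, a deubiquitinase of the 19S particle (log2 fold change -0.34, limma adjusted p = 0.0379). Adrm1, Sem1, Usp14 and Ecpas did not pass.

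Among 5 genes that control the constitutive proteasome genes, 2 were higher in TNF-α against Con, where 2.94% of all genes were. Nfe2l1 encodes NRF1, the factor that raises proteasome genes when proteasomes are inhibited, and it was 40.6, 41.4 and 40.0 FPKM in Con, 61.2, 59.8 and 59.5 FPKM in TNF-α, and 63.6, 59.0 and 60.3 FPKM in TNF-α+WBT. Con stood clearly apart, with a log2 fold change of 0.57 (limma adjusted p = 5.14e-05). Nfe2l2 gave 0.18 (adjusted p = 0.0398). Ddi2, Ngly1 and Vcp, which process NRF1, did not pass.

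Of 9 genes that load peptides on MHC class I, downstream of the immunoproteasome, 5 were higher in TNF-α against Con (2.94% of all genes). The list median was 0.60 on the log2 scale, against 0.0028 over all genes tested. Because the list was written with earlier results of these data known, this describes the list and is not a test of it. B2m, the light chain of class I, was 217, 210 and 209 FPKM in Con, 423, 447 and 430 FPKM in TNF-α, and 403, 414 and 411 FPKM in TNF-α+WBT. Tapbp (tapasin) gave the highest log2 fold change of the list, 1.20, followed by B2m with 1.03, Tapbpl with 0.71, Tap2 with 0.60 and Erap1 with 0.51, all with a limma adjusted p of at most 0.00408. The general chaperones Calr, Canx and Pdia3 and the transporter gene Tap1 did not pass. In TNF-α+WBT against TNF-α, 0 of the 9 passed.

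A list of 8 transcription factor genes known to act on immunoproteasome genes was also written with earlier results of these data known. Of these, 4 were higher in TNF-α against Con, where 2.94% of all genes were. These were Irf1 (log2 fold change 0.69, limma adjusted p = 0.00608), Nlrc5, the class I transactivator (0.77, adjusted p = 0.0278), Nfkb1 (0.38, adjusted p = 0.00352) and Stat2 (0.31, adjusted p = 0.0379). Rela gave 0.24 with an adjusted p of 0.0814, and the rest of the list did not pass either. None of the 8 passed in TNF-α+WBT against TNF-α.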

How the data were processed

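RNA of 9 mouse libraries in 3 groups was sequenced from poly(A)-selected paired-end libraries. The authors deposited FPKM values per gene and per transcript, and the workflow of the study names HISAT2, StringTie and Ballgown. Versions, genome build and annotation are not given in the sources used here. Every column of the deposited tables was mapped to a library, and 0 columns were left unmapped. Gene and transcript names follow GENCODE M21 by identifier.

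The test, limma 3.58.1 in R 4.3.3, took log2(FPKM + 0.1) of each gene that exceeded 0 FPKM in 3 or more libraries and fitted 1 linear model to all 9 libraries, with moderated variances that follow an intensity trend. The model was run on simulated data whose changes were larger than those of the members, so recovery of changes as small as theirs was not tested. Sums, ratios and figures were made in Python 3.11.15 (scipy 1.17.1, numpy 2.4.6, pandas 2.3.3, matplotlib 3.10.9). For log2 ratios of catalytic subunits, an exact permutation test (two-sided) was used.

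The number of fragments per library was estimated from low FPKM values, which rise in steps of 1 fragment, in 10678 single-transcript genes longer than 1000 bases. Between 50.3% and 53.4% of low values lay within 0.1 of a whole fragment, where 20% would by chance, so fragments are approximate. Stretches of 50 bases shared with other genes were counted in GENCODE M21 transcripts.

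The members and gene lists were chosen with earlier results of these data known. Values in every library are given for the catalytic subunits, the activators, Psmf1, Pomp, each member past the adjusted threshold, and the 3 largest rises and falls among members with a mean of at least 1 FPKM. The alternatives covered the pseudocount, filter, trend, groups in the model, scaling, transcript sums, replicate block and each library left out.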

Additional observations from a re-analysis of the deposited data

How the results depend on the processing

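The 5 members higher in TNF-α against Con were called under every alternative run, with Psme1 as a sixth when only genes whose mean reached 1 FPKM were tested and when the first TNF-α library was left out. The count was 0 in TNF-α+WBT against TNF-α under all of them, and 5 to 7 in TNF-α+WBT against Con. No called value of a named gene changed its sign. For all genes, TNF-α+WBT against TNF-α gave 1 gene, 11 with a pseudocount of 0.01, 7 without the trend, 2 with only the 2 groups compared, 2 with summed transcript values and 0 to 11 with a library left out (0 without the second Con or the first TNF-α+WBT library, 11 without the second TNF-α+WBT library). TNF-α+WBT against Con gave 942 genes, and 588 to 817 with a library left out (588 without Con replicate 3).

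Member transcripts called in TNF-α against Con numbered 3, but 0 without the trend, 1 with only the 2 groups compared and 1 to 2 with a library left out (1 without Con replicate 1 or 2 or TNF-α replicate 1 or 3). With the single transcript of highest mean in place of the gene, the log2 ratio of Psmb8 to Psmb5 differed by 0.27 in TNF-α against Con and by 0.62 in TNF-α+WBT against TNF-α. The cause was not tested.

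With the replicate number as a block, the member counts stayed at 5, 0 and 6, while all genes gave 893, 0 and 701 and member transcripts 0. Deviations of libraries with the same number correlated at -0.067 to 0.095, so the numbers were not taken to pair them.

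About 45.7 estimated fragments in the lowest library limit Psmb9. With 3 libraries against 3, the exact permutation test cannot pass 0.05.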
